A study of Homo sapiens with 5 samples.

Results

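The genes described here are 10 genes for secreted factors, namely the angiogenic ligands VEGFA, VEGFB, VEGFC, PGF, ANGPT2, ANGPTL4, APLN and ADM and the stanniocalcins STC1 and STC2. They were taken as a list of symbols, paired with gene identifiers through the table deposited by the authors, and all 10 were found among the 64837 entries counted in each library. Gene coordinates are those of GENCODE release 29 on GRCh38. The cells were NCI-H209, an established cell line from a human small cell lung cancer (SCLC), grown in RPMI-1640 with fetal bovine serum. The control group held 3 untreated cultures, and the experimental group held 2 cultures that shared medium for 24 h with human brain microvascular endothelial cells (HBMECs), endothelial cells of small brain vessels, which sat on a porous Transwell insert above them. Only the RNA of the NCI-H209 cells was collected, so the study models the vascular niche with 1 cell line and without cell contact. Neither the labels nor the methods say whether control wells received an empty insert, or that replicates were grown independently, so the p-values below measure the spread between these libraries, which may be technical.

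VEGFA, VEGFB and PGF are ligands of the receptor FLT1, VEGFA is also the main ligand of KDR, which drives the growth of new vessels, and VEGFC acts through FLT4 on lymphatic vessels. ANGPT2 is a context-dependent ligand of the endothelial receptor TEK, ANGPTL4 is a secreted inhibitor of lipoprotein lipase, apelin (APLN) is a peptide that acts on APLNR, and adrenomedullin (ADM) is a vasodilator peptide that acts on CALCRL with a RAMP protein. STC1 and STC2 are related glycoproteins. STC2 binds and inhibits the protease PAPPA, an enzyme that cleaves binding proteins of insulin-like growth factors. Many of these genes, VEGFA, ADM, ANGPTL4 and STC1 among them, are known targets of the hypoxia-inducible factors (HIFs), which bind DNA at a short core written ACGTG or GCGTG. STC2 and VEGFA are also known to be induced through ATF4, a transcription factor of the integrated stress response.

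Because several of these genes changed together, the bases before their start sites were searched for the HIF core on both strands. The RefSeq table of promoters on GRCh38.p14 held 7 of the 10 genes, with 8 start sites, and VEGFA, ANGPT2 and STC1 were not in it. In the 250 bases before the start, a core of either form was found in 7 of the 8 windows and for all 7 genes, against 43.2% of the 35116 windows of the same length in the table. The bases G and C made up 63.6% to 82.8% of the 8 windows. The comparison was not matched for this, and the windows of PGF overlap each other. The windows that held it belonged to genes that rose on co-culture and to genes that did not, so the letters alone did not separate them. The motif TGATGNAA, a form of the composite site of C/EBP and ATF proteins, was found in 0 of the 8 windows and in 3.14% of all windows. For contrast, 4 windows are shown, those of ANGPTL4 and APLN, which rose, and those of VEGFB, which was not called, and VEGFC, which was too low to test. They are written on the strand of the gene, from 5′ to 3′, with the core in capitals (read as CACGT or CACGC where it lies on the other strand) and without bases that GENCODE release 29 places in an exon. The windows lie at chr19:8363905-8364150 on the plus strand for ANGPTL4, chrX:129654957-129655206 on the minus strand for APLN, chr11:64234334-64234537 on the plus strand for VEGFB and chr4:176792923-176793172 on the minus strand for VEGFC.
ANGPTL4: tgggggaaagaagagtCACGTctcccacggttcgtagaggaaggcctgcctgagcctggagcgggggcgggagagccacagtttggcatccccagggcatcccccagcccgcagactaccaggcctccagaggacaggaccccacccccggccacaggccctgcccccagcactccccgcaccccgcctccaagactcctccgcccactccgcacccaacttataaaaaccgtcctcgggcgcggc
APLN: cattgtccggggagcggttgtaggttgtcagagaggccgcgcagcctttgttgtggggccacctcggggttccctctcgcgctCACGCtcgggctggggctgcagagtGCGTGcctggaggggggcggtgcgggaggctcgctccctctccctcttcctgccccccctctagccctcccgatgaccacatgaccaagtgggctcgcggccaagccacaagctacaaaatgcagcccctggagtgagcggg
VEGFB: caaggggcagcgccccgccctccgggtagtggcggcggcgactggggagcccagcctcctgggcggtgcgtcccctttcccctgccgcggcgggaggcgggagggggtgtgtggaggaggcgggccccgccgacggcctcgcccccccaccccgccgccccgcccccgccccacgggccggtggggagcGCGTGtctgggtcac
VEGFC: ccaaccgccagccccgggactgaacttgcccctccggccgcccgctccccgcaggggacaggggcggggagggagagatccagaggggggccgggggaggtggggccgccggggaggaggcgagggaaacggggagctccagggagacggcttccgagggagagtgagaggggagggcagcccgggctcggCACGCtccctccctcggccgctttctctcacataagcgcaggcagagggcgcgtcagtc
ANGPTL4 had 1 core of the ACGTG form, at 234 bases before the start. APLN had 2 of the GCGTG form, at 167 and 142 bases before it. VEGFB and VEGFC each had 1 of the GCGTG form, at 61 and 59 bases before the start. The windows of STC2, with 3 cores, and ADM, with 1, lie within exons of longer GENCODE transcripts and are not printed. None of the cores lay in the palindrome CACGTG, which other factors bind.

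The libraries held 15457071 to 19157348 counts on genes. Of the reads of a library, 8.13% to 8.48% were unmapped in the control group and 15.9% to 16.8% in the co-cultured group, and the part of this difference in the results was not tested. No replicates were alike within counting error (chi-square over its degrees of freedom 4.41 to 17.7). Levels are given as CPM, counts of a gene per 1e6 counts of the library, after TMM scaling. Of 12 SCLC neuroendocrine markers, 11 passed the filter on low counts, while CHGA had at most 1 count in any library. Of the 20360 genes that passed the filter on low counts, 18.4% were higher and 15% lower in co-cultured cells at an adjusted p under 0.05 (edgeR's quasi-likelihood test, Benjamini-Hochberg), which is what "called" means below. Of the 11 neuroendocrine markers, 3 were called higher and 1 lower, with 6 higher without control replicate 1, 2 higher and 0 lower without either co-cultured replicate, and 2 lower without control replicate 1 or 3. SYP and NCAM1 rose by 0.57 and 0.37 on the log2 scale. The marker called lower was DLL3, and GRP was lower at an unadjusted p under 0.05 by edgeR but not called. The study set thresholds on fold change and p for its DEGs, without naming the scale or an adjustment. Read here as a change of over 1 on the log2 scale and an unadjusted p below 0.05, the share of upregulated DEGs was 5.44%.

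Co-cultured NCI-H209 cells held more RNA of 7 of the 10 genes: VEGFA, ANGPT2, ANGPTL4, APLN, ADM, STC1 and STC2. These 7 were called higher against the background of 18.4%, 0 were called lower against 15% (also 0 at an unadjusted p under 0.05 and 0 by DESeq2), VEGFB and PGF were tested and not called, and VEGFC was too low to test. All 7 also met the criterion for upregulated DEGs, against 5.44% of all genes tested. The median log2 fold change of the 9 tested genes was 2.12, and that of all tested genes was -0.03. The filter was passed by ANGPTL4 only through its co-cultured libraries. The 10 genes were chosen with earlier results of these data known, so the counts set against the background are not a test. The summed level of the 10 genes was 447 to 496 CPM across control replicates and 1326 and 1661 CPM after co-culture. In such bulk libraries, more cells that express a gene and more RNA per cell cannot be told apart.

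**Figure D1:**
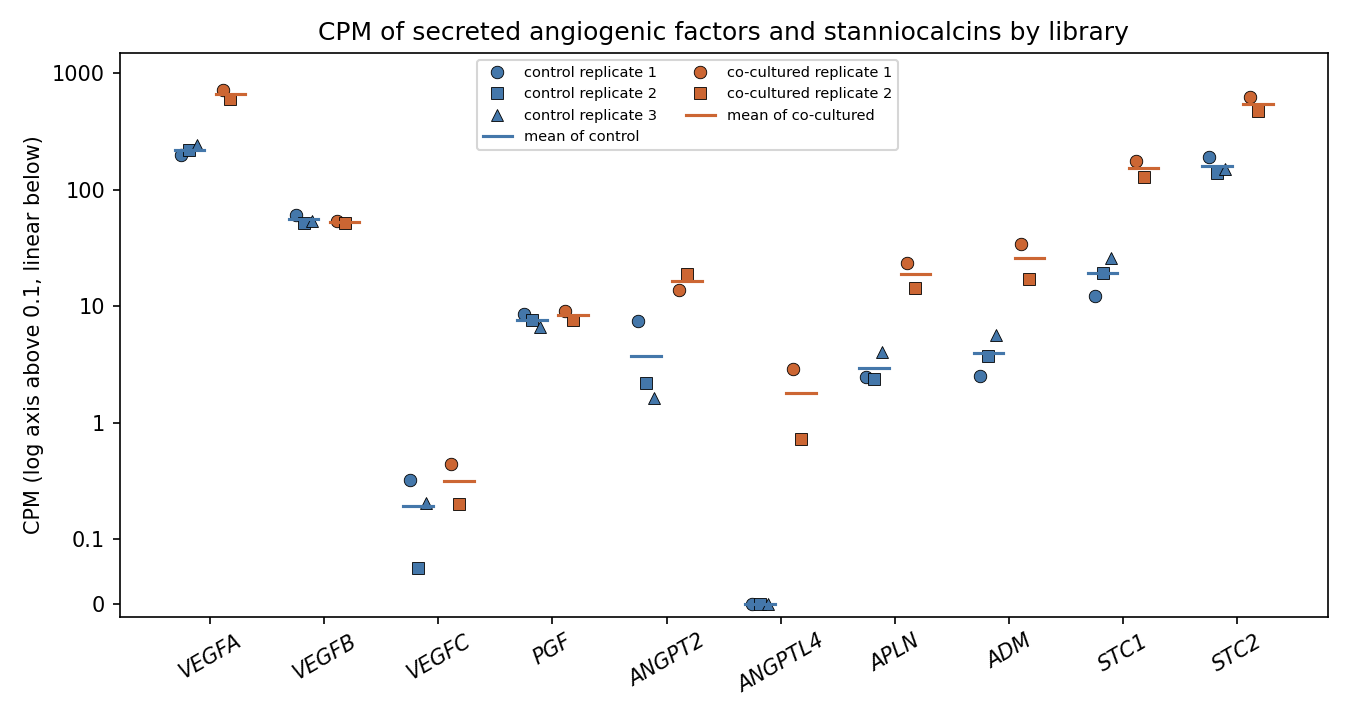
CPM of the 10 genes in each library, on an axis that is logarithmic above 0.1 and linear below; blue points are the 3 control libraries, orange points the 2 co-cultured libraries, and lines the group means. For 7 genes both co-cultured libraries lie above all control libraries, as they do for 29.4% of all genes tested. The groups overlap for VEGFB, VEGFC and PGF.

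**Figure D2:**
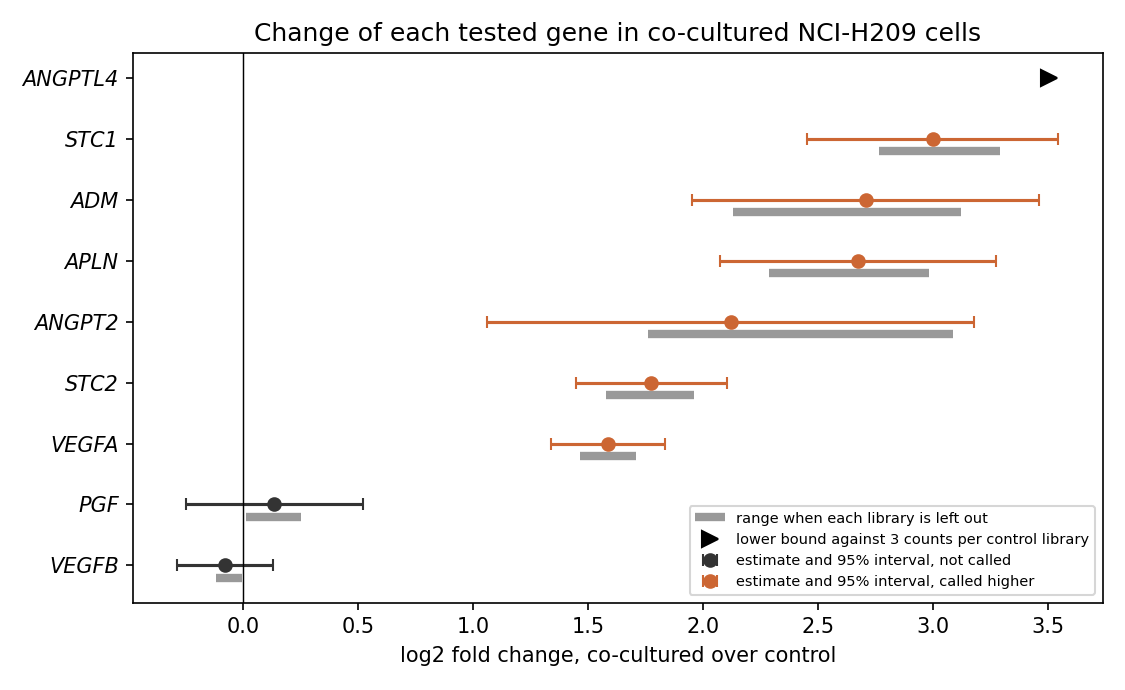
Change of the 9 tested genes after co-culture, on the log2 scale, with 95% intervals as thin bars and the range over fits with 1 library left out as grey bars. The intervals of VEGFB and PGF include 0, and ANGPTL4, with 0 counts in control, is drawn as the lower bound of 3.50.

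Among the VEGF ligands, the rise was that of VEGFA. VEGFA (ENSG00000112715.21), on chromosome 6 from 43770184 to 43786487, had 199, 220 and 245 CPM across control replicates and 721 and 608 CPM after co-culture. The lower co-cultured library was above every control library. The control mean was 221 ± 23.2 CPM (SD, n = 3) and the co-cultured mean 665 ± 80.4 CPM (SD, n = 2). The log2 fold change was 1.59 with a standard error of 0.11 (adjusted p = 4.05e-05 by edgeR), which is 3.00-fold. Of all genes tested, 2.14% had a larger log2 fold change.

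VEGFB (ENSG00000173511.9), which is linked more to fatty acid handling and survival of vessels than to their growth, was not called. VEGFB lies on chromosome 11 from 64234538 to 64238793 and had 61.3, 52.4 and 53.8 CPM across control replicates and 53.9 and 51.9 CPM after co-culture. The ranges overlapped, and the log2 fold change was -0.08 with a 95% interval from -0.29 to 0.13 (adjusted p = 0.554 by edgeR). A change of the size seen for VEGFA lay outside this interval. PGF (ENSG00000119630.13), placental growth factor, on chromosome 14 from 74941834 to 74955784, had 8.67, 7.58 and 6.66 CPM across control replicates and 9.07 and 7.66 CPM after co-culture. The groups of PGF overlapped as well, with a log2 fold change of 0.14 and a 95% interval from -0.25 to 0.52 (adjusted p = 0.575 by edgeR). VEGFC (ENSG00000150630.3), on chromosome 4 from 176683538 to 176792727, had 6, 1 and 4 counts across control replicates and 8 and 3 counts after co-culture. At this depth no difference could be shown for VEGFC, and in the only alternative that tested it, with all genes of at least 1 count in any library admitted, its log2 fold change was 0.72 (standard error 0.78, adjusted p = 0.597 by edgeR).

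VEGFA therefore made up more of the reads on this family after co-culture. Of the counts on VEGFA, VEGFB, VEGFC and PGF, VEGFA held 73.9%, 78.6% and 80.2% across control replicates and 91.9% and 91.1% after co-culture. The ratio of VEGFA to VEGFB counts within a library, which does not depend on how libraries are scaled, was 3.24, 4.20 and 4.56 across control replicates and 13.4 and 11.7 after co-culture. On the log2 scale the ratio was 1.66 higher in co-cultured cells (exact permutation test over libraries, two-sided, p = 0.1, the smallest that 3 against 2 libraries allow).

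ANGPT2 and ANGPTL4, of the angiopoietin and angiopoietin-like families, were both higher, each with a limit of its own. ANGPT2 (ENSG00000091879.13) lies on chromosome 8 from 6499651 to 6563409 and had 7.44, 2.21 and 1.64 CPM across control replicates and 13.9 and 19.0 CPM after co-culture. The groups did not overlap, but control replicate 1 was over 3 times as high as the other 2 control libraries. The log2 fold change was 2.12 (standard error 0.47, adjusted p = 0.00818 by edgeR). Without control replicate 1 it was 3.09, and without co-cultured replicate 2 it was 1.88 and no longer called (adjusted p = 0.0844; range over 13 alternatives 1.23e-39 to 0.0844). ANGPT2 lies opposite to MCPH1, a gene read from the other strand, and 28.7% to 83.1% of the reads over ANGPT2 were on that strand. The exons of ANGPT2 and MCPH1 share 78 bases. Counted without strand, the log2 fold change of ANGPT2 was 1.06.

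ANGPTL4 (ENSG00000167772.11), on chromosome 19 from 8363289 to 8374373, had 0 counts in each of the 3 control replicates, while co-culture gave 53 and 11. In CPM these were 2.90 and 0.727, so the co-cultured libraries differed 3.99-fold from each other. Against a floor of 3 counts per control library, which is 0.160 CPM on average and covers counting error only, the co-cultured mean of 1.81 ± 1.53 CPM (SD, n = 2) was at least 11.3-fold higher, or at least 4.55-fold without co-cultured replicate 1. It was called (adjusted p = 0.00313 by edgeR), and its fitted fold change is not given, because it depends on the prior count. Without co-cultured replicate 1 ANGPTL4 did not pass the filter and could not be tested. The opposite strand of ANGPTL4 held 18 to 23 counts across control replicates and 7 and 10 after co-culture, a lower range than in control. RAB11B-AS1 overlaps ANGPTL4 there, but their exons share only 1 base, so the source of these reads is not known. Counted without strand, the log2 fold change of ANGPTL4 was 1.29.

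The vasoactive peptides APLN and ADM were both called higher, from low control levels. APLN (ENSG00000171388.11), on chromosome X from 129645259 to 129654937, had 2.45, 2.38 and 4.04 CPM across control replicates and 23.4 and 14.4 CPM after co-culture. The lower co-cultured value was over 3 times the highest control value. The log2 fold change of APLN was 2.67 (standard error 0.27, adjusted p = 0.000173 by edgeR). ADM (ENSG00000148926.9), on chromosome 11 from 10304680 to 10307397, had 2.50, 3.70 and 5.68 CPM across control replicates and 34.5 and 17.3 CPM after co-culture. Its groups were as clearly apart, while replicates differed up to 2.27-fold within control and 1.99-fold within the co-cultured group. The log2 fold change of ADM was 2.71 (standard error 0.33, adjusted p = 0.000464 by edgeR). Over the fits that each lacked 1 library, it ran from 2.13 to 3.12, and that of APLN from 2.29 to 2.98.

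The stanniocalcins rose together, STC1 from a low level and STC2 from a high one. STC1 (ENSG00000159167.11), on chromosome 8 from 23841915 to 23854807, had 12.3, 19.2 and 26.1 CPM across control replicates and 178 and 130 CPM after co-culture. The control mean was 19.2 ± 6.89 CPM (SD, n = 3) and the co-cultured mean 154 ± 33.5 CPM (SD, n = 2). The log2 fold change was 3.00 with a standard error of 0.24 (adjusted p = 6.66e-05 by edgeR). Of the 10 genes, STC1 had the largest fitted change among those with counts in both groups, and 0.260% of all genes tested had a larger one. STC2 (ENSG00000113739.10), on chromosome 5 from 173314713 to 173329503, had 190.0, 139.6 and 152 CPM across control replicates and 624 and 477 CPM after co-culture. The control mean was 161 ± 26.2 CPM (SD, n = 3) and the co-cultured mean 550.2 ± 104 CPM (SD, n = 2). The log2 fold change was 1.78 with a standard error of 0.15 (adjusted p = 7.12e-05 by edgeR), which is 3.43-fold. Both groups were well apart for both genes.

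Counts of STC2 exceeded those of STC1 15.4, 7.28 and 5.83 times across control replicates and 3.51 and 3.66 times after co-culture. The ratio was thus lower in both co-cultured libraries than in any control library. On the log2 scale the difference was -1.27 (exact permutation test, two-sided, p = 0.2, where the smallest possible is 0.1). With these libraries the test cannot reach a p under 0.05, so no conclusion is drawn from it. Control replicate 1 had the highest ratio.

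Levels of different genes were compared only as CPM per kilobase of exon. In control cells VEGFB was highest, with 36.1 ± 3.07 CPM per kilobase (SD, n = 3), followed by STC2 with 26.2 ± 4.28, VEGFA with 15.3 ± 1.61 and STC1 with 4.63 ± 1.66. The ranges of these neighbours did not overlap. ADM at 1.46 ± 0.592, PGF at 1.28 ± 0.169, APLN at 0.922 ± 0.294 and ANGPT2 at 0.556 ± 0.472 CPM per kilobase followed, each overlapping the next, and VEGFC was at 0.0798 ± 0.0547. In co-cultured cells STC2 was first, with 89.8 ± 17.0 CPM per kilobase (SD, n = 2), then VEGFA with 46.1 ± 5.57, STC1 with 37.1 ± 8.09 and VEGFB with 34.2 ± 0.957. STC1 overlapped both VEGFA and VEGFB there, so that these 3 were not in a firm order. ADM reached 9.53 ± 4.47 and APLN 5.90 ± 1.98 CPM per kilobase. The place of VEGFA depends on the length used, since the exons of its 32 annotated transcripts span 14431 bases together while its coding transcripts have a median of 1098.5 bases. With the longest transcript as the length, VEGFB was still first in control, and with the median coding transcript STC2 was first, VEGFA second and VEGFB the third.

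**Figure D3:**
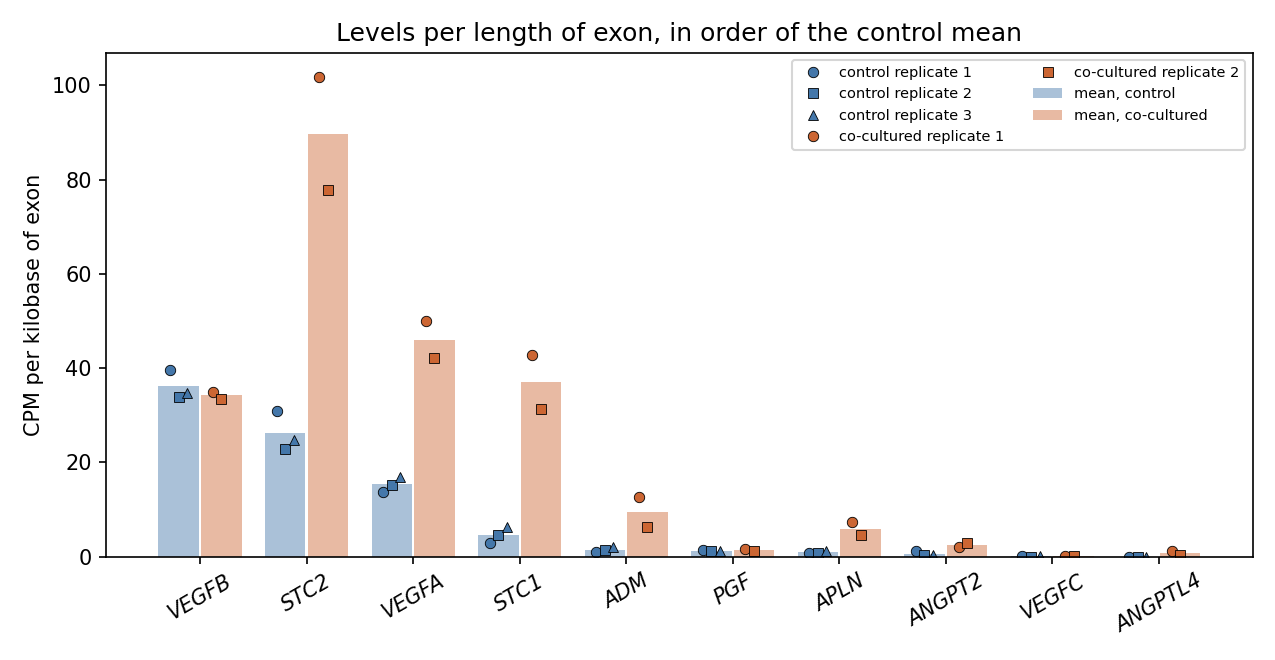
CPM per kilobase of exon of the 10 genes, in order of the control mean; bars start at 0 and show group means, and points show libraries. VEGFB leads in control at 36.1, and STC2 leads in co-cultured cells at 89.8.

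Libraries of 1 group did not deviate in the same way for all of these genes. In the control group ADM, STC1 and VEGFA were lowest in replicate 1 and highest in replicate 3. The summed level of 40 hypoxia-responsive genes had the same order, with 3682, 4496 and 5187 CPM in control and 12988 and 9545 CPM after co-culture. That list was written from general knowledge, with earlier results of these data known. STC2, ANGPT2, VEGFB and PGF were instead highest in control replicate 1. So was the summed level of 24 genes of the ATF4 and unfolded protein response, with 4018, 3292 and 3272 CPM in control and 5854 and 5927 CPM after co-culture. The summed level of the 12 neuroendocrine markers was highest there too, with 2773, 2176 and 2325 CPM in control. STC2 was lowest in control replicate 2 and higher in co-cultured replicate 1, which is the order of the ATF4 sum in neither group. Of the called genes, all but ANGPT2 were higher in co-cultured replicate 1 than in replicate 2, by 1.19-fold for VEGFA and up to 3.99-fold for ANGPTL4. The part of these lists in the results of the 10 genes was not tested.

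**Figure D4:**
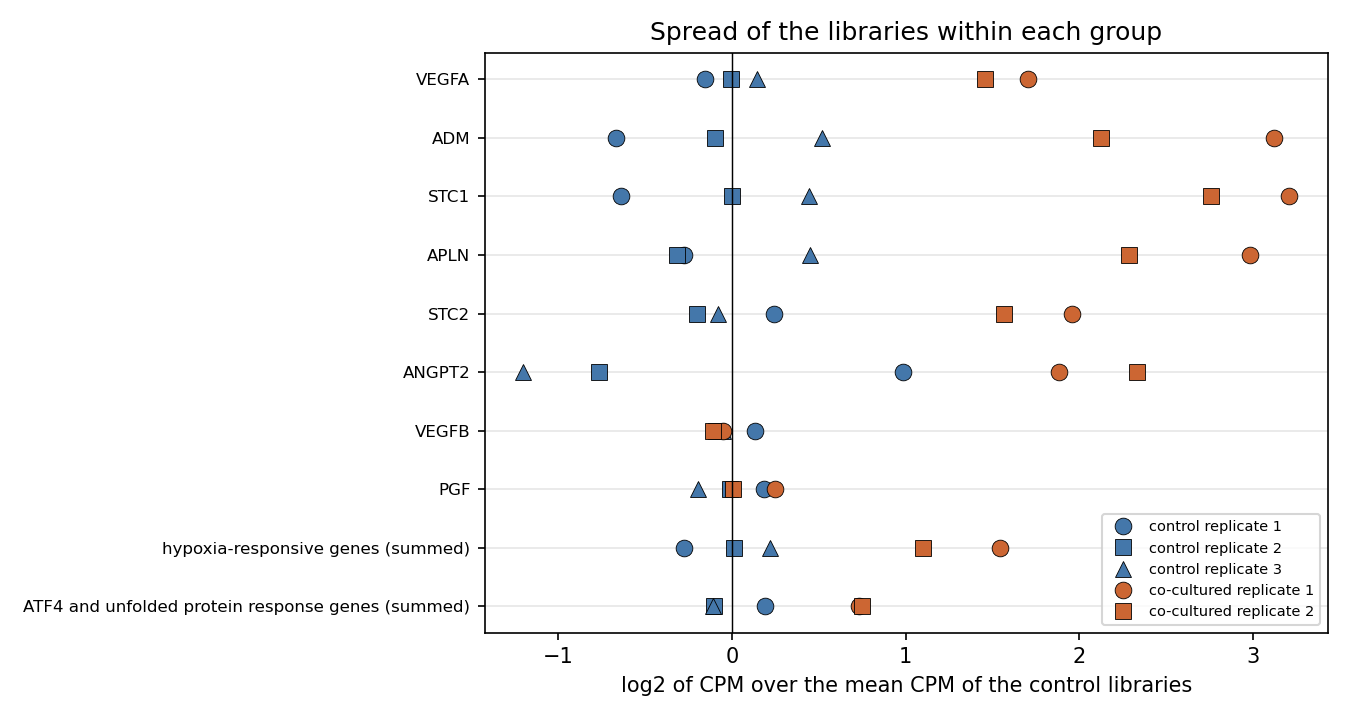
Log2 of the CPM in each library over the mean of the control libraries, for 8 of the 10 genes and for the summed CPM of 2 lists. In the control group ADM and STC1 follow the order of the hypoxia-responsive genes, while STC2 and ANGPT2 are highest in replicate 1.

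In the hypoxia-responsive list, 34 of 38 tested genes were called higher and 0 lower (also 0 at an unadjusted p under 0.05 and 0 by DESeq2), and the list median was a log2 fold change of 1.46. Those with the smallest p were DDIT4, a stress-induced inhibitor of mTORC1 signalling, with a log2 fold change of 2.30, EGLN1, a prolyl hydroxylase that marks HIF subunits for breakdown, with 1.5, and PLOD2, a collagen lysyl hydroxylase, with 1.86. In the list of the ATF4 and unfolded protein response, 18 of 23 tested genes were called higher and 1, the chaperone HSP90B1, lower (0 without either co-cultured replicate), with a list median log2 fold change of 0.91. PPP1R15A, a phosphatase subunit that restores translation, rose by 1.5 on the log2 scale, XBP1, a transcription factor of the unfolded protein response, rose by 1.37, and TRIB3, a pseudokinase induced by ATF4, rose by 1.47. Against a background of 18.4%, the shares called higher were 89.5% and 78.3%. Both lists were chosen with earlier results of these data known, so these shares are not a test. When each library was left out in turn, the number called higher in each list both fell below and rose above that with all libraries. Of the hypoxia-responsive genes called, 1, TMEM45A, passed the filter only through its co-cultured libraries. ATF4 itself, which is regulated largely at translation, was tested and not called.

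Of the 13 other members of the ligand families, 7 stayed at or below 3 counts throughout, and of the 4 that could be tested 1 was called higher, against a background of 18.4%, and 0 lower (1 lower at an unadjusted p under 0.05, 0 by DESeq2). Without control replicate 1, 2 were called higher. The gene called with all libraries was ADM2, also called intermedin, a peptide that shares receptors with adrenomedullin, with 43.4, 30.6 and 32.0 CPM across control replicates and 66.8 and 76.8 CPM after co-culture. Its log2 fold change was 1.02 (standard error 0.14, adjusted p = 0.000908 by edgeR). ANGPT1, the agonist of TEK that ANGPT2 can oppose, had 519, 409 and 451 counts across control replicates and 469 and 421 after co-culture and was not called.

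Endothelial receptors of these ligands were scarce in NCI-H209 cells. KDR had 37, 27 and 2 counts across control replicates and 12 and 4 after co-culture, FLT1 had 30, 28 and 0 against 1 and 1, FLT4 had 42, 23 and 1 against 3 and 0, and TEK had 31, 24 and 0 against 6 and 3. Control replicates 1 and 2 thus held nearly all control reads of these 4 genes, and in the same libraries KDR had 24 and 20, FLT1 44 and 17, FLT4 36 and 28 and TEK 25 and 23 counts on the opposite strand. None of the 4 was called, and the receptor APLNR had at most 1 count in any library. Over all 28 receptors, co-receptors and binding proteins, 10 of 23 tested were called higher and 1 lower, against backgrounds of 18.4% and 15%, and the median change was 0.41 on the log2 scale. The count of lower genes was 5 without control replicate 3 and 0 without any other single library. The count of higher genes ran from 5 to 11 over the fits that each lacked 1 library, with 6 without control replicate 2, 6 without co-cultured replicate 1 and 5 without co-cultured replicate 2.

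The called genes of this list with the smallest p were SDC1, IGFBP5 and ITGAV. SDC1, a heparan sulfate proteoglycan that can hold growth factors at the cell surface, rose by 1.28 on the log2 scale. IGFBP5, a binding protein of insulin-like growth factors, had 945, 633 and 681 CPM across control replicates and 2695 and 2311 CPM after co-culture, a log2 fold change of 1.73 (adjusted p = 0.000121 by edgeR). ITGAV, an integrin subunit, rose by 0.58 on the log2 scale. Of the parts of the adrenomedullin receptor, CALCRL was called higher with a log2 fold change of 1.39. It had 20, 7 and 11 counts across control replicates and 28 and 31 after co-culture. Its opposite strand held 12, 6 and 7 counts in control and 6 and 8 after co-culture. RAMP2 was not called, and RAMP1, which makes CALCRL a receptor for CGRP, fell by 2.18 on the log2 scale from 12, 12 and 8 counts to 1 and 3. RAMP1 passed the filter only through its control libraries, where it is the higher. PAPPA2, a protease of the family that STC2 inhibits, rose by 1.83 on the log2 scale. It had 11, 5 and 13 counts across control replicates and 18 and 42 after co-culture. PAPPA itself was not called (log2 fold change 1.06, adjusted p = 0.108 by edgeR), with 12, 15 and 5 counts in control and 23 and 17 after co-culture. Its opposite strand held 881, 1156 and 1223 counts in control and 761 and 713 after co-culture.

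Among 28 other secreted angiogenic factors, 10 of 20 tested were called higher, against a background of 18.4%, and 0 lower (also 0 at an unadjusted p under 0.05 and 0 by DESeq2), and the list median was a log2 fold change of 1.15. Of the 10, 3 (HBEGF, LIF and PTN) passed the filter on low counts only through their co-cultured libraries, so nothing is read from the share. CXCL1 and CXCL8, chemokines that attract neutrophils and act on endothelial cells, had the log2 fold changes 2.56 and 3.19, and the growth factor FGF2 had 1.14. The opposite strand of FGF2 held 68, 120 and 119 counts in control and 85 and 90 after co-culture. TYMP and TGFB1, also called higher, had more reads on the opposite strand than on their own in every library. CXCL8 had 3.62, 1.55 and 0.922 CPM across control replicates and 17.5 and 19.5 CPM after co-culture, with control replicate 1 the highest, as for ANGPT2. Of 19 secreted inhibitors of angiogenesis, 2 of 14 tested were called higher and 2 lower, against backgrounds of 18.4% and 15%. The share called higher, 14.3%, was near its background, so nothing is read from these counts. The median log2 fold change of the inhibitors was -0.08. Without control replicate 1 the count of higher inhibitors was 4, without either co-cultured replicate it was 0, and that of lower ones was 1 without co-cultured replicate 2. CXCL14 fell by 3.28 and VASH2 fell by 0.65 on the log2 scale, while CXCL10 rose by 2.28. CXCL10 passed the filter only through its co-cultured libraries. VASH2, a relative of the inhibitor VASH1, is itself described as promoting vessel growth.

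**Figure D5:**
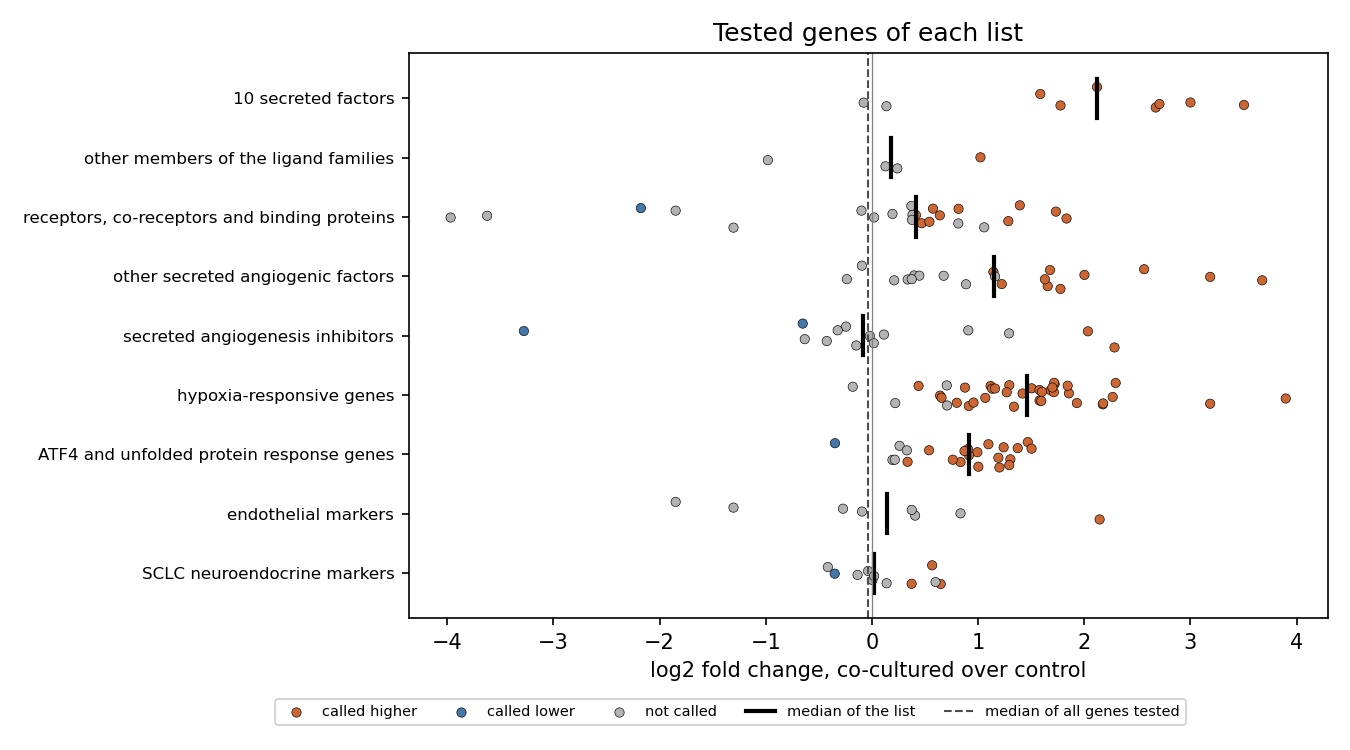
Log2 fold change of each tested gene by list; orange points were called higher, blue points lower and grey points not called, black bars are list medians, the dashed line is the median of all genes tested, and ANGPTL4 is drawn at its lower bound. The medians are 2.12 for the 10 secreted factors, 1.46 for the hypoxia-responsive genes and 0.91 for the ATF4 and unfolded protein response genes.

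Markers of endothelial cells, the other cell type in the co-culture, were counted in the same libraries, and their part in the results was not tested. Of 19 such markers, 8 stayed at or below 3 counts throughout, among them EMCN, ROBO4, PLVAP and TIE1, and MMRN1, PLVAP and ECSCR had 0 in all. PECAM1 had 14, 10 and 3 counts across control replicates and 18 and 11 after co-culture, and CDH5 had 11, 8 and 4 against 7 and 11. The summed level of the 19 markers was 20.1, 13.5 and 10.5 CPM across control replicates and 14.0 and 13.8 CPM after co-culture. Both co-cultured values were thus below control replicate 1 and above control replicates 2 and 3. Of the 8 tested, 1 was called higher, the junction protein ESAM (log2 fold change 2.14) with 3, 4 and 6 counts across control replicates and 21 and 14 after co-culture, against a background of 18.4%, and 0 were called lower (also 0 at an unadjusted p under 0.05 and 0 by DESeq2). ESAM passed the filter only through its co-cultured libraries. Without co-cultured replicate 1 the count of higher markers was 0, and without control replicate 3 the count of lower markers was 2.

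VEGFB, first of the 10 genes in control per kilobase of all exons or of the longest transcript, though not of the median coding transcript, was compared with the other 13696 protein-coding genes tested. The most similar in log2 CPM over the 5 libraries were LIPG, MDK and SRSF10, with Pearson correlations of 0.998, 0.996 and 0.995. All 3 shared with VEGFB a high value in control replicate 1, and with 5 libraries these values describe the libraries only. MDK, the secreted growth factor midkine, had 166 CPM in control replicate 1 and 109 to 121 CPM in the other 4 libraries.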

How the data were processed

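RNA of NCI-H209 cells was sequenced from 5 libraries made with a directional kit after depletion of ribosomal RNA. According to the submitters' processing notes, CASAVA 1.8, STAR 2.6.1b, DESeq2 and GRCh38 were used. The deposited gene tables hold STAR counts per gene, not normalized, for no strand and for each strand. The column of the strand that held 92.3% to 93.1% of stranded gene counts was used. Reads not counted on genes (66.4% to 69.3%) were left out. The table of the authors' comparison (group means, fold changes and p-values) gave gene names only, and 0 columns of other samples were present.

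Counts were fitted with edgeR 4.0.16 in R 4.3.3 (filterByExpr, TMM, quasi-likelihood test, group as the only term, 20360 genes, Benjamini-Hochberg over all of them), after a test on simulated data. CPM used the effective library sizes of this fit. Ratios were compared by an exact permutation test. The members and lists were chosen with earlier results of these data known. All 10 members are described, and in each of the 8 lists up to 3 called genes with the smallest p are named. The result of 1 such gene is not reported here. Other list genes were named after their values were seen. Motifs were searched in RefSeq promoter windows. The alternatives were DESeq2 1.42.0, 2 other normalizations, 2 other filters, counts without strand, a replicate block, other gene lengths and each library left out. A count of 3 equals 0.157 to 0.194 CPM of a library, and floors cover counting error only. Intervals come from the edgeR fit and, like its p-values, include the estimated spread between these libraries, which may be technical.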

Additional observations from a re-analysis of the deposited data

Results flagged for a closer look

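Reads on the strand opposite to the gene, which enter none of the comparisons, were more numerous in both co-cultured libraries than in any control library for 3 of the 10 genes. The counts on the gene's own strand rose for these genes as well. As a share of the reads over the gene, opposite-strand reads of STC2 were lower in both co-cultured libraries than in any control library. For ADM and STC1 this share overlapped between the groups. No share over all genes is set beside this count, so nothing is read from it. ADM had 8 and 7 opposite-strand counts in the co-cultured libraries, against 0, 1 and 2 in control. STC1 had 9 and 14, against 1, 2 and 5 in control. STC2 had 28 and 16, against 10, 8 and 15 in control. These were at most 2.6% of the reads over each gene, and no test was run.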

How the results depend on the processing

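The 7 calls among the 10 genes held under all alternatives that could test them, except for ANGPT2 without co-cultured replicate 2 (log2 fold change 1.88, not called, with a range of 1.76 to 3.09 over the fits that each lacked 1 library), and no result changed sign. ANGPTL4 could not be tested with at least 10 counts in every library or without co-cultured replicate 1. Of the control levels per kilobase, those that moved by more than 1 SD between control libraries with the longest transcript as the length were VEGFA (18.2), VEGFB (40.5), PGF (2.15) and ADM (2.10). With the median coding transcript, an alternative chosen after seeing the data, those past the same limit were VEGFA (202), VEGFB (57.0), PGF (4.50), ANGPT2 (1.34), ADM (3.16), STC1 (6.82) and STC2 (261).

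Counts of called genes in the lists moved more. With at least 1 count in any library, 5 receptors were lower, 4 inhibitors higher, 2 endothelial markers lower and 2 neuroendocrine markers lower. With at least 10 counts in every library, 0 receptors were lower, 1 inhibitor higher, 0 endothelial markers higher and 2 neuroendocrine markers lower. Without strand, 1 gene of the ligand families, 2 receptors, 1 endothelial marker and 0 neuroendocrine markers were lower. DESeq2 and upper-quartile normalization each gave 2 lower neuroendocrine markers. Without control replicates 1 and 2 together, also chosen after seeing the data, 0 receptors were lower, and 4 inhibitors, 2 endothelial markers and 5 neuroendocrine markers were higher. With each library left out in turn, higher calls ran from 1 to 2 in the ligand families, 5 to 11 in receptors, 0 to 4 in inhibitors, 0 to 1 in endothelial and 2 to 6 in neuroendocrine markers. Lower calls ran from 0 to 5 in receptors, 1 to 2 in inhibitors, 0 to 1 in ATF4 and unfolded protein response genes, 0 to 2 in endothelial and 0 to 2 in neuroendocrine markers. Higher calls among the hypoxia-responsive genes, the ATF4 and unfolded protein response genes and the other angiogenic factors also moved both ways. The causes were not tested.

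Replicate numbers of the groups are not said to mark a shared batch or day, and same-numbered libraries did not deviate together (r = -0.15 and -0.08). With a replicate block the 7 calls held, 5 receptors, 0 ATF4 and unfolded protein response genes, 2 endothelial and 2 neuroendocrine markers were lower, and calls over all genes went from 3750 higher and 3059 lower to 2771 and 2053. Upper-quartile normalization gave 3076 higher and 3929 lower calls over all genes, so the split between directions depends on the scaling. Calls over all genes were fewest without co-cultured replicate 1 (1749 higher and 985 lower) and most without control replicate 1 (5295 and 4602).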
